A study of Mus musculus with 6 samples.

Results

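The genes examined were those of the AP-1 transcription factor family expressed in infarct macrophages, Fos, Fosb, Fosl1, Fosl2, Jun, Junb, Jund, Jdp2, Atf3 and Batf3, taken by their symbols from a count table of 54532 genes. All 10 had enough counts to be tested, among 14522 genes that passed the expression filter. AP-1 is a family of transcription factors that bind DNA as pairs through a basic region and a leucine zipper (bZIP). Fos proteins pair only with partners such as Jun proteins, whereas Jun proteins also pair with each other. JDP2 and the BATF proteins carry little more than the bZIP part and can occupy AP-1 sites without the activating segments of Fos, so that JDP2 is known as a repressor of AP-1 activity. In macrophages, Fos, Fosb, Jun, Junb and Atf3 are immediate early genes, switched on within minutes by cytokines, adhesion signals, MAP kinases and stress, and their products act on genes of inflammation, matrix turnover and growth factors.

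The libraries were RNA-seq of Ly6G-negative, CD11b-positive cells from hearts of 12-week-old C57BL/6 mice, 7 days after a coronary artery had been closed for good. In 3 ITGA5 fl/fl libraries both alleles of the gene of the integrin α5 chain were flanked by recombination sites and intact. In 3 Myα5KO libraries the same floxed alleles were combined with LyzM-Cre, which deletes the gene in cells that express lysozyme M. This driver also acts in neutrophils and other myeloid cells. The ITGA5 fl/fl group carried no Cre, so in these libraries effects of Cre itself and of the deletion cannot be told apart. The study set infarcted LyzM-Cre mice against littermates without Cre and reported no significant difference in cardiac function or vessel density. That comparison did not cover macrophage RNA. The cells were released from individual hearts by warm enzymatic digestion before magnetic selection. Immediate early genes respond within minutes, and their induction during this handling was not measured. For these genes, levels in the heart and effects of handling cannot be told apart.

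Total counts lay between 15424451 and 18419287 per library. Itga5 (chromosome 15, 103344286 to 103366763) had 9666 to 10536 counts in ITGA5 fl/fl and 895 to 939 in Myα5KO libraries, and 8.02% of its ITGA5 fl/fl level was left. All 9 macrophage markers listed were expressed. Csf1r ran from 2098 to 2301 CPM (counts scaled by the TMM method to a common library total) in ITGA5 fl/fl and from 1995 to 2265 CPM in Myα5KO libraries. The summed level of the 9 markers was 15089 to 15326 CPM in ITGA5 fl/fl and 13284 to 14094 CPM in Myα5KO libraries. In Myα5KO, 1 marker was higher (Fcgr1) and 1 lower (Cd14). Cd14 alone gave 4650 to 4939 and 3280 to 3750 CPM of these sums. Log2 differences of Csf1r, Adgre1, Cd68, Mertk, C1qa and C1qb lay between -0.06 and -0.008, and Itgam (-0.20) was not called. In bulk libraries, fewer cells of a type and less RNA per cell cannot be told apart.

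Within the family the genes moved in opposite directions. Fos, Fosb and Atf3 rose in Myα5KO macrophages by 1.32 to 1.51 times. In contrast, Jdp2 and Fosl1 fell to 47.1% and 45.9% of the ITGA5 fl/fl level. The other 5, Jun, Junb, Jund, Fosl2 and Batf3, did not pass the test (edgeR quasi-likelihood test, Benjamini-Hochberg adjusted p of 0.05 or less over all tested genes). Of the 10 members, 3 were higher, against 3.56% of all tested genes, and 2 were lower, against 5.19% (8.75% in either direction). The members were chosen with earlier results of these data known, so these counts are a description only.

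The promoters of the 4 called genes with an entry in the RefSeq tables are shown because AP-1 genes are known to be controlled by their own products and by CREB and ATF factors, which read related letters. Each sequence runs from 250 bases before to 50 bases after a transcription start of RefSeq (build GRCm38.p6), 5′ to 3′ on the strand of the gene. Capitals mark the letters TGACG, the core shared by cyclic AMP response elements, on either strand. The windows are chr12:85473640-85473939 (plus strand) for Fos, chr7:19309996-19310295 (minus strand) for Fosb, chr1:191183284-191183583 (minus strand) for Atf3, and chr12:85598855-85599154 and chr12:85599166-85599465 (plus strand) for the first and second of 3 starts of Jdp2.
Fos: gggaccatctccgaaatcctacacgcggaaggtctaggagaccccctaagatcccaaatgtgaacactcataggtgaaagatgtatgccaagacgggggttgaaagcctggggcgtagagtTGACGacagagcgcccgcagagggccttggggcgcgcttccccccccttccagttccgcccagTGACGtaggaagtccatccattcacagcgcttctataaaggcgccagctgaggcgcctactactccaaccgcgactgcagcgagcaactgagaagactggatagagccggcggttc
Fosb: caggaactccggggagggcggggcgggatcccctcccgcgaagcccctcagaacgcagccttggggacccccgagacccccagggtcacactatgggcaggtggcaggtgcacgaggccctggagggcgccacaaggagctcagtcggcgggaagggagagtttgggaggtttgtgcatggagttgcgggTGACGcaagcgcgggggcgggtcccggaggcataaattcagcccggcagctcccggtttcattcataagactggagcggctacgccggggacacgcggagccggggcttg
Atf3: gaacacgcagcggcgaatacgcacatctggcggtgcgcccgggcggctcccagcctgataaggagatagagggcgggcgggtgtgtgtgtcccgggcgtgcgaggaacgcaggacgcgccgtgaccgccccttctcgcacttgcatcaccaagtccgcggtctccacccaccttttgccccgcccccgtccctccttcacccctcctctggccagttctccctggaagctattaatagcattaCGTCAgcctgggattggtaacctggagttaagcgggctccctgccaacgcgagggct
Jdp2 first start: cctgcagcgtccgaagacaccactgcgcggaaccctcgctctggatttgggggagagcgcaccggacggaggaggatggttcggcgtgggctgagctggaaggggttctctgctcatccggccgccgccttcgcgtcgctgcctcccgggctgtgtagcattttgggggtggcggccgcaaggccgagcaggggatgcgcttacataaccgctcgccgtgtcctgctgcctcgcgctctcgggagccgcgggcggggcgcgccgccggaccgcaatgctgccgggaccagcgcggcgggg
Jdp2 second start: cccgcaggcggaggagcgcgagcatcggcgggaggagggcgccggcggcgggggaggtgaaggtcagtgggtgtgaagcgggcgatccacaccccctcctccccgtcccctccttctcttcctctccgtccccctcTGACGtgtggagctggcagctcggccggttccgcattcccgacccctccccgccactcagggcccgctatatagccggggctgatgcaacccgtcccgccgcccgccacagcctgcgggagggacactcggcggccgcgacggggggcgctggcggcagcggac

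The letters TGACG stood 129 and 66 bases before the start of Fos, 60 bases before that of Fosb, 7 bases before that of Atf3 and 106 bases before that of Junb. The first window of Jdp2 held none, as did the last, and the middle one held the letters 114 bases before its start. In Jun, the related element TGACATCA stood 45 bases before the start. The full AP-1 element TGANTCA was found in no window of the 9 members with an entry (Fosl1 had none), on either strand, and the CArG box, which binds serum response factor, was not found in them either. Among all 32851 promoter windows of this length, 20.8% held TGACG, 8.83% held TGACNTCA (which shares TGACG where N is G), 7.81% held TGANTCA and 1.63% held a CArG box. The windows of Fosl2, Jund and Batf3 held none of these letters. The start used for Atf3 lies 34706 bases inside the span of the gene in the deposited table, and that used for Jund lies 1210 bases upstream of it. A match describes letters only, and these windows are too short to show more distant elements.

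**Figure D1:**
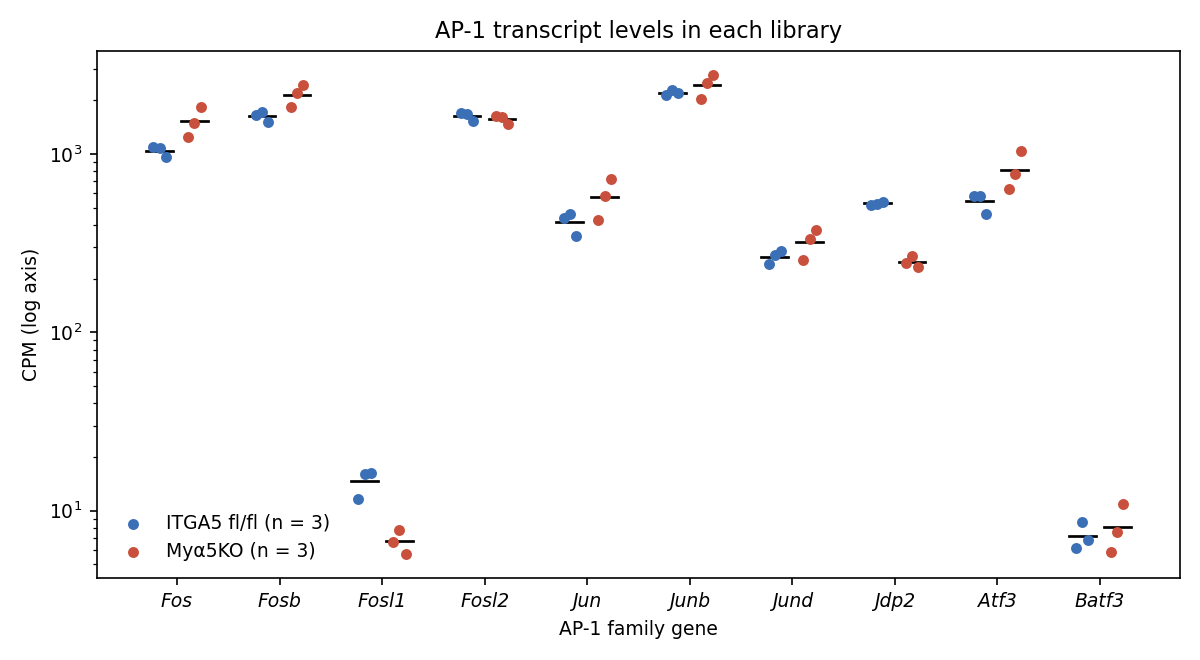
TMM-scaled CPM of the 10 AP-1 genes on a log axis, with a point per library (blue ITGA5 fl/fl, red Myα5KO, n = 3 each) and a bar at each group mean. The groups of Jdp2 and Fosl1 are separated downwards and those of Fos, Fosb and Atf3 upwards, while those of the other 5 genes overlap.

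Among the Fos genes, Fos itself (chromosome 12, 85473890 to 85477273, plus strand) encodes the inducible partner of Jun proteins. It had 1088, 1073 and 957 CPM in ITGA5 fl/fl libraries 1 to 3 and 1243, 1488 and 1824 CPM in Myα5KO libraries 1 to 3. Every Myα5KO library lay above every ITGA5 fl/fl library, with the widest gap in Myα5KO replicate 3. Mean CPM rose from 1039 ± 71.7 to 1518 ± 292 (SD over 3 libraries per group), or by 0.55 ± 0.11 on the log2 scale (SE; adjusted p from edgeR = 0.00987). Groups that do not overlap in the upward direction were found for 14.9% of all tested genes and in the downward direction for 13.8%, so that separation alone was common. Without ITGA5 fl/fl replicate 3 the log2 difference of Fos was 0.49 and missed the threshold of edgeR (adjusted p = 0.0593; the alternatives spanned 1.33e-05 to 0.219).

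Fosb (chromosome 7, 19302696 to 19310051, minus strand) encodes a close relative of Fos. Its levels were 1647, 1707 and 1505 CPM in ITGA5 fl/fl and 1836, 2185 and 2419 CPM in Myα5KO libraries. The groups did not overlap, and the rise was smaller than that of Fos in point estimate, at 0.41 ± 0.097 on the log2 scale (SE; adjusted p from edgeR = 0.0204). This difference between Fos and Fosb was not tested. Fosb lost its call without ITGA5 fl/fl replicate 3 (log2 difference 0.36) and without Myα5KO replicate 2 (0.39). Full-length and truncated FosB are made by splicing and were not distinguished by counts per gene.

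Fosl1 (chromosome 19, 5447703 to 5455945, plus strand), also known as Fra-1, encodes a Fos protein without the strong activating segment. It moved the opposite way. The libraries held 11.6, 16.1 and 16.3 CPM in ITGA5 fl/fl and 6.71, 7.81 and 5.73 CPM in Myα5KO, corresponding to 173, 274 and 286 counts and 126, 146 and 109 counts. No Myα5KO library reached the lowest ITGA5 fl/fl library. Its log2 difference was -1.12 ± 0.16 (SE; adjusted p from edgeR = 0.000862), and between -1.26 and -1.02 when each library was left out in turn, with the call kept in all 6 fits.

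Fosl2 (chromosome 5, 32135801 to 32157842, plus strand), or Fra-2, is the other Fos gene of this type. It had 1694, 1663 and 1534 CPM in ITGA5 fl/fl and 1629, 1611 and 1470 CPM in Myα5KO libraries. These ranges overlapped for most of their width. The log2 fold change was -0.05 with a 95% interval from -0.22 to 0.11, unadjusted for the number of genes, and turned to 0.026 with total counts as the only scaling. Thus, a change of Fosl2 as large as that of Fosl1 lay outside the interval, whereas the test of the difference between both genes was not run.

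None of the 3 Jun genes was called by edgeR or by DESeq2, although 2 of them, Jun and Jund, had an unadjusted edgeR p under 0.05. Jun (chromosome 4, 95049034 to 95052222, minus strand), the founding partner of Fos, had 435, 461 and 348 CPM in ITGA5 fl/fl and 423, 579 and 727 CPM in Myα5KO libraries. Myα5KO replicate 1 fell among the ITGA5 fl/fl libraries, and the other two exceeded them. The log2 difference of Jun was 0.47 ± 0.15 (SE; 95% interval 0.15 to 0.80, adjusted p from edgeR = 0.0721). Without Myα5KO replicate 1 it was 0.65 and passed the test (adjusted p = 0.0037; the alternatives spanned 0.0037 to 0.452), and with scaling by library totals it was 0.56 and also passed (adjusted p = 0.034).

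Junb (chromosome 8, 84974484 to 84978718, minus strand), which encodes a Jun protein that can restrain c-Jun, had the highest FPKM of all 10 genes in every library. Its levels were 2138, 2283 and 2181 CPM in ITGA5 fl/fl and 2037, 2496 and 2775 CPM in Myα5KO libraries. The lowest and the highest of the 6 values were both from Myα5KO hearts. The log2 difference was 0.15 ± 0.10 (SE; 95% interval -0.07 to 0.36, adjusted p from edgeR = 0.411). Its 3′ end overlaps Prdx2 on the opposite strand by 351 bases. The strand setting of the counting is not stated, so that reads in that stretch cannot be told apart, and Prdx2 had 1560 to 2145 counts per library against 31904 to 52774 for Junb.

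Jund (chromosome 8, 70698949 to 70700616, plus strand) encodes the Jun protein that most cells express without stimulation. It had 240, 270 and 284 CPM in ITGA5 fl/fl and 255, 333 and 374 CPM in Myα5KO libraries, again with Myα5KO replicate 1 inside the range of ITGA5 fl/fl. The log2 difference was 0.28 ± 0.11 (SE; 95% interval 0.03 to 0.52, adjusted p from edgeR = 0.16). It passed the test without Myα5KO replicate 1 (log2 difference 0.41). Taken by replicate, 7 of the 10 genes (Fos, Fosb, Jun, Junb, Jund, Atf3 and Batf3) were highest in replicate 3 among the Myα5KO libraries. Among the ITGA5 fl/fl libraries, 5 genes (Fos, Fosb, Fosl2, Jun and Atf3) were lowest in replicate 3. The shares of all tested genes with these orders were not computed, so the counts were not read as particular to the family.

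Jdp2 (chromosome 12, 85599027 to 85639878, plus strand) had the smallest SE of the 10 genes, and its product binds Jun proteins and represses AP-1 sites. ITGA5 fl/fl libraries had 518, 526 and 537 CPM, and Myα5KO libraries had 244, 269 and 231 CPM. The libraries of each group lay close together and far from those of the other group. Mean CPM fell from 527 ± 9.47 to 248 ± 19.5 (SD over 3 libraries per group), a log2 difference of -1.09 ± 0.072 (SE; 95% interval -1.24 to -0.93, adjusted p from edgeR = 2.87e-06). Jdp2 was called in each of its 18 alternatives, with adjusted p between 3.06e-45 and 0.0257, and its log2 fold change stayed between -1.15 and -1.04 when each library was left out. Ordered from the most negative log2 difference among the 14522 tested genes, Fosl1 took rank 89 and Jdp2 rank 100.

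Atf3 (chromosome 1, 191170296 to 191218039, minus strand) encodes a stress-inducible bZIP factor that often acts as a repressor of inflammatory genes in macrophages. It had 582, 579 and 461 CPM in ITGA5 fl/fl and 635, 775 and 1034 CPM in Myα5KO libraries. The groups were separated, but the step between ITGA5 fl/fl replicate 1 and Myα5KO replicate 1 was small beside the spread within Myα5KO. The log2 difference was 0.59 ± 0.14 (SE; adjusted p from edgeR = 0.0213). Atf3 missed the threshold with DESeq2 (log2 difference 0.58, adjusted p = 0.088; the alternatives spanned 0.00212 to 0.297) and without ITGA5 fl/fl replicate 3 (0.49).

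Batf3 (chromosome 1, 191097847 to 191108945, plus strand) is known as a factor of cross-presenting dendritic cells and had, with Fosl1, the lowest FPKM of the family. Its values of 6.17, 8.63 and 6.83 CPM in ITGA5 fl/fl and 5.91, 7.60 and 10.9 CPM in Myα5KO libraries overlapped. The log2 difference was 0.17 ± 0.20 (SE; 95% interval -0.27 to 0.61, adjusted p from edgeR = 0.667) and turned to -0.098 without Myα5KO replicate 3. Xcr1 and Clec9a, markers of the dendritic cells that need BATF3, had 2.34 to 4.62 and 1.88 to 3.69 CPM over the 6 libraries. Levels across the listed dendritic cell markers ran from Siglech (0.91 to 2.41 CPM) to Wdfy4 (196 to 248 CPM).

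**Figure D2:**
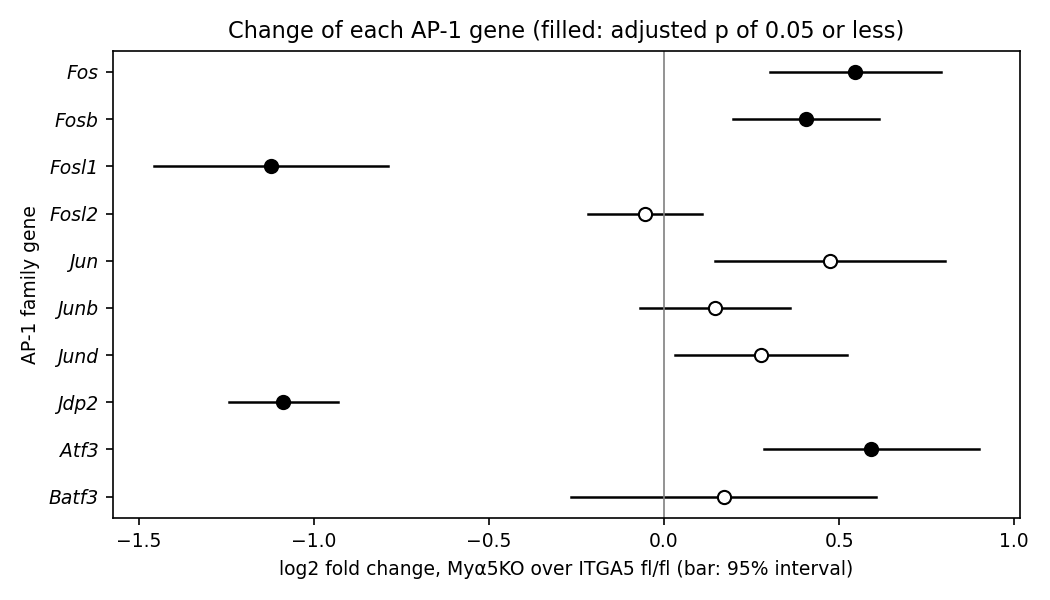
Log2 fold change of each AP-1 gene, Myα5KO over ITGA5 fl/fl, with bars for the unadjusted 95% interval of the edgeR fit (n = 3 libraries each). Filled points mark the 5 called genes: Fosl1 at -1.12 and Jdp2 at -1.09 stand apart on the left, and Fosb (0.41), Fos (0.55) and Atf3 (0.59) on the right.

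Some of these genes are neighbours in the genome. Fos and Jdp2 lie 121753 bases apart on the same strand of chromosome 12, yet Fos rose and Jdp2 fell. Batf, another short bZIP gene, follows Jdp2 at a distance of 46790 bases and had 26.5 to 29.6 CPM in ITGA5 fl/fl and 21.1 to 26.7 CPM in Myα5KO libraries, with a log2 difference of -0.23 that missed the threshold (adjusted p from edgeR = 0.165). On chromosome 1, Atf3 and Batf3 lie 61350 bases apart on opposite strands. Jun overlaps the antisense gene Junos over 689 bases, and Jdp2 overlaps the antisense gene Gm47863 over 165 bases, with 39 to 73 and 43 to 83 counts per library for these partners, far below the counts of Jun and Jdp2.

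To compare levels between genes, the deposited FPKM were used, which divide counts by gene length. In ITGA5 fl/fl macrophages the order of mean FPKM was Junb (952 ± 28.9), Fos (440 ± 29.9), Fosb (258 ± 15.9), Atf3 (250 ± 31.7) and Jdp2 (244 ± 4.53), followed by Fosl2 (168 ± 8.62), Jund (158 ± 13.04), Jun (129 ± 18.3), Fosl1 (8.55 ± 1.53) and Batf3 (4.49 ± 0.78; SD, n = 3 each). Fosb, Atf3 and Jdp2 were closer together than their spread, as were Fosl2 and Jund. In Myα5KO macrophages Junb (1050 ± 153) and Fos (640 ± 118) were again first and second, Atf3 (375 ± 90.1) and Fosb (341 ± 44.2) came next, and Jdp2 (115 ± 9.70) held the eighth place, behind Jun (179 ± 45.8), Jund (191 ± 34.8) and Fosl2 (161 ± 10.2). Batf3 (5.04 ± 1.53) and Fosl1 (3.93 ± 0.63) exchanged the last places, by a margin smaller than the spread of Batf3.

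Within the summed FPKM of the family, Jdp2 held 9.16, 8.97 and 9.96% in ITGA5 fl/fl libraries whereas Myα5KO libraries gave 4.41, 4.03 and 3.01%. Fos held 17.6, 16.7 and 16.2% in ITGA5 fl/fl whereas Myα5KO libraries gave 20.5, 20.4 and 21.7%. Neither share overlapped between the groups (exact two-sided permutation p = 0.1 for each, the smallest value that 3 against 3 libraries allow). Set against Fos itself, Jdp2 amounted to 52.2, 53.6 and 61.5% of the Fos FPKM in ITGA5 fl/fl and to 21.5, 19.8 and 13.9% in Myα5KO libraries. These shares are tied to each other, since a rise of one lowers the rest.

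The 4 Fos genes held 42.9, 41.2 and 39.9% of the FPKM of Fos and Jun genes together in ITGA5 fl/fl libraries whereas Myα5KO libraries gave 45.9, 44.1 and 44.3%. The groups did not overlap, and the mean was 3.41 percentage points higher in Myα5KO (exact permutation p = 0.1). The summed FPKM of all 10 genes overlapped, since ITGA5 fl/fl libraries had 2628, 2705 and 2504 whereas Myα5KO libraries gave 2571, 3098 and 3509 (exact permutation p = 0.3). Without Myα5KO replicate 3 the difference of the mean sums was 222 FPKM in place of 447.

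**Figure D3:**
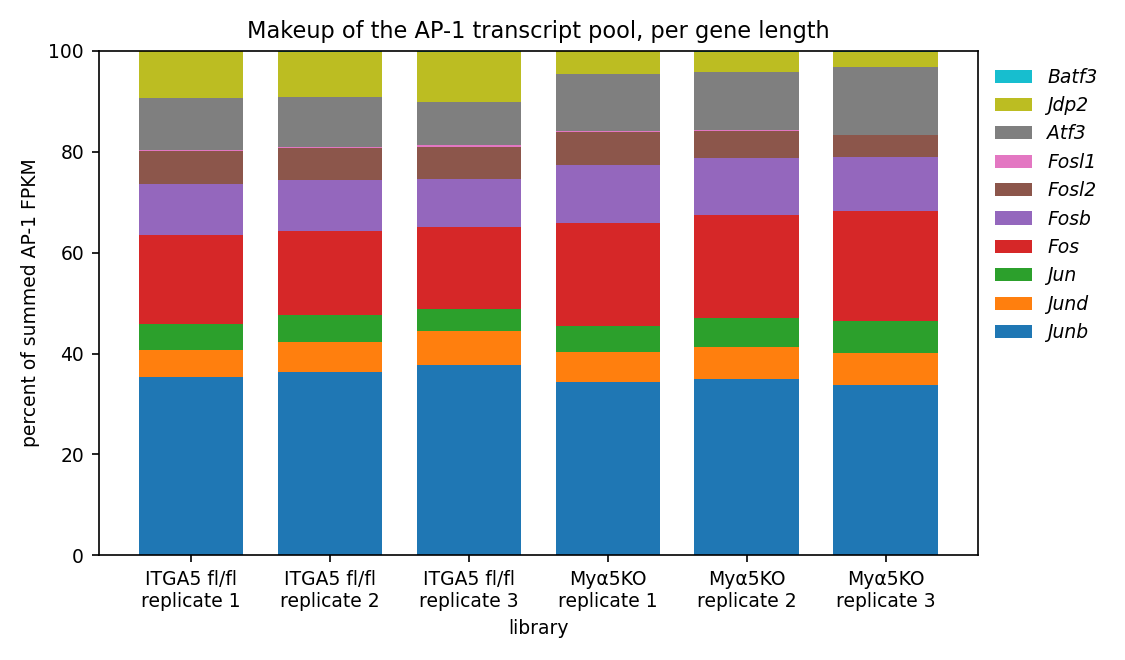
Percent of the summed FPKM of the 10 AP-1 genes held by each gene, stacked to 100 for each of the 6 libraries. Junb is the largest share in every library (33.8 to 37.7%), and Jdp2 shrinks from at least 8.97% in ITGA5 fl/fl to at most 4.41% in Myα5KO libraries.

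Other genes were compared with the called members by the root mean square (RMS) difference of their centred log2 CPM over the 6 libraries, among 9357 well expressed genes, as a description of shared pattern only. Nearest to Fos were Rgs2, which encodes a regulator of G-protein signalling (RMS 0.055), Btg2, an early-induced antiproliferative gene (0.059), and Hhex (0.072). Btg2 (0.064) was also nearest to Atf3, followed by Igsf9 (0.070) and Fos itself (0.073). Nearest to Jdp2 were Procr, which encodes the endothelial protein C receptor (0.057), Srxn1, an antioxidant gene (0.066), and Nrg1, a growth factor gene (0.080). Nrg1 was the nearest gene to Fosl1 as well (0.11), with Acod1 (0.13) and Rhou (0.14) behind it. Fosb was followed most closely by Taf6 (0.022), Pmaip1 (0.044) and Trim47 (0.046).

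Immediate early genes outside the family were examined next. Of 18 tested, 7 rose, against 3.56% of all tested genes, and 1 fell, against 5.19%. A positive log2 fold change was found for 15 of them, against 7668 of all 14522 tested genes (median 0.26, against 0.015 over all tested genes). Egr3 rose most, from 17.4 ± 0.325 to 30.6 ± 0.76 CPM (log2 difference 0.82, adjusted p from edgeR = 0.000109), followed by Btg2 (0.65), Nr4a1 (0.42), Klf4 (0.39), Rhob (0.38), Ier2 (0.38) and Dusp1 (0.27), which encodes a phosphatase of MAP kinases. The gene that fell was Ier3 (-0.41). Egr1, another classical gene of the early response, had a log2 difference of 0.46 that missed the threshold (adjusted p from edgeR = 0.0764). The count of 7 was 2 without ITGA5 fl/fl replicate 3, 3 without ITGA5 fl/fl replicate 2 or without Myα5KO replicate 2 or 3, and 11 without Myα5KO replicate 1.

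Heat shock genes, which cells induce under stress, were read beside them. Of 10 tested genes 0 were called by edgeR and 0 by DESeq2, with 5 at an unadjusted edgeR p under 0.05, all higher. These genes had a positive log2 fold change in 9 of 10 cases, with a median of 0.24. Over all tested genes, 7668 of 14522 were positive, with a median of 0.015. The share of all tested genes under that unadjusted p is not given here. Their summed level was 5023, 5841 and 5218 CPM in ITGA5 fl/fl and 5277, 6553 and 7209 CPM in Myα5KO libraries, so that the groups overlapped and Myα5KO replicate 3 was highest, as it was for Fos, Fosb, Jun and Atf3. Markers of other cells were read beside the shares of all tested genes called, 3.56% higher and 5.19% lower. A single call in a list was not read as a shift of that list. Granulocyte markers were higher for 5 of 8 tested genes (S100a8, S100a9, Ngp, Camp and Ltf). Mmp8 (0.47), Csf3r (0.13) and Retnlg (-0.65) were not called. The summed level was 187 to 226 CPM in ITGA5 fl/fl and 245 to 372 CPM in Myα5KO libraries. Csf3r alone gave 141 to 173 and 155 to 179 CPM of it, while Ly6g had 0 to 2 counts per library. Monocyte markers were higher for 3 of 5, among them Ly6c2 and Ccr2, with sums of 271 to 354 and 419 to 423 CPM. Fibroblast markers (8 tested) summed to 1624 to 1903 CPM in ITGA5 fl/fl and 1217 to 1583 CPM in Myα5KO libraries, which did not overlap. Only Postn was called lower by edgeR, while DESeq2 called 3 lower. All 8 had a negative log2 fold change (median -0.29). For 5 of them the groups did not overlap, against 13.8% of all tested genes in that direction. B-cell markers (6 tested) summed to 470 to 587 and 516 to 811 CPM, with 2 higher, among them Cd79b. Cardiomyocyte markers were lower for 3 of 7 tested genes (log2 differences of -1.30 for Ttn, -1.03 for Actc1 and -0.69 for Tnnt2), and their sums of 22.02 to 23.73 CPM in ITGA5 fl/fl and 13.6 to 18.2 CPM in Myα5KO libraries did not overlap. Of 9 dendritic cell markers Cd209a was higher, with sums of 294 to 324 and 320 to 364 CPM, and of 6 endothelial markers Kdr was higher, with sums of 283 to 324 and 311 to 345 CPM. Of 3 tested T and NK cell markers 0 were called by edgeR or DESeq2, with 2 at an unadjusted edgeR p under 0.05 and sums of 3.55 to 4.89 and 5.99 to 7.41 CPM. The part of these shifts in the differences of Fos, Fosb, Atf3, Fosl1 and Jdp2 was not tested.

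**Figure D4:**
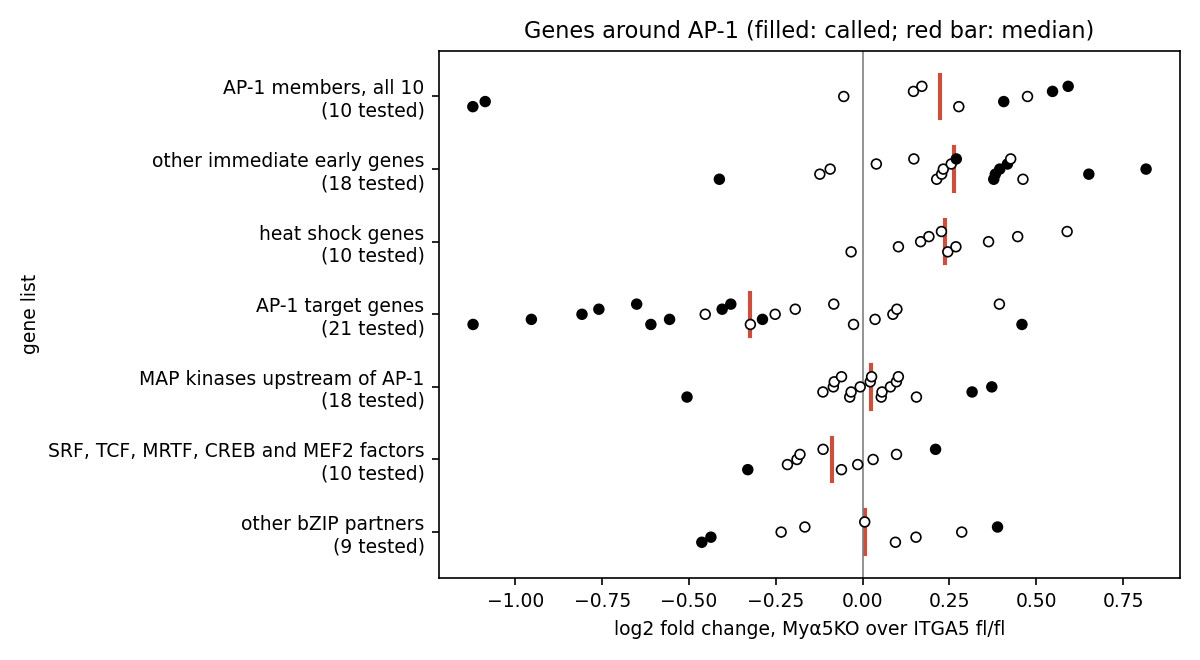
Log2 fold changes, Myα5KO over ITGA5 fl/fl, of the tested genes of the AP-1 family and 6 further lists, with a point per gene, filled where called by edgeR, and a red bar at the median. Immediate early genes (median 0.26) and heat shock genes (median 0.24, none called) lean to the right. AP-1 target genes lean to the left (median -0.32), and kinases and other bZIP partners lie around 0. The lists were chosen with earlier results of these data known.

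Genes that AP-1 is known to act on were examined as well. Of 22 listed, 21 were tested, of which 10 fell, against 5.19% of all tested genes, and 1 rose, against 3.56%. Their median log2 fold change was -0.32, and the list was chosen with earlier results of these data known. Il10 fell by 1.12, Il6 by 0.95, Cxcl2 by 0.81 and Hmox1, the heme-degrading enzyme, by 0.76 on the log2 scale. Plaur, which encodes the urokinase receptor, fell by 0.61, and Hbegf, Vegfa, Cd44 and Il1b by 0.56, 0.40, 0.38 and 0.29. Ccnd1, which encodes cyclin D1, was the gene that rose (0.46). Il10, Il6, Il1b and Hbegf were named as lower by the study from these samples, and Cxcl2 and Vegfa from the same kind of cells, so their direction is not independent evidence. The proteases Mmp9 (0.39), Mmp12 (-0.03) and Mmp13 (0.04), long-known AP-1 genes, were not called, nor were Plau (-0.08), Tnf (-0.25) and Ptgs2 (-0.32). The count of 10 was 8 to 12 when each library was left out. Dimer makeup, phosphorylation and DNA binding of AP-1 were not measured here.

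Upstream, 18 kinases that lead to AP-1 were tested, of which 2 rose, against 3.56% of all tested genes, and 1 fell, against 5.19%. Rps6ka1, which encodes the kinase RSK1, rose from 96.8 ± 2.68 to 125 ± 4.42 CPM (log2 fold change 0.37) and Mapk14, the gene of p38α, from 133 ± 5.54 to 165 ± 2.39 CPM (0.32), whereas Map2k3, whose product activates p38, fell by 0.51 on the log2 scale (values ± SD, n = 3 each). Of 10 tested factors of the serum response, CREB and MEF2 type, 1 rose, against 3.56%, and 1 fell, against 5.19%. The gene that rose was Mef2c (0.21, adjusted p from edgeR = 0.0491), and Mkl1, a coactivator of serum response factor, fell (-0.33). DESeq2 called 0 of these factors higher and 1 lower. Of 5 genes for ubiquitin ligases and their partners that remove Jun proteins, 0 were called by edgeR and 0 by DESeq2, with 0 at an unadjusted edgeR p under 0.05.

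Among 9 further bZIP partners, 1 rose, against 3.56% of all tested genes, and 2 fell, against 5.19%. Maf rose (0.39), and Maff and Mafg, small Maf proteins that also pair with Fos and NRF2, fell (-0.44 and -0.46). The deposited table marks 38 genes besides the 10 members as bZIP factors, a grouping taken up after the values were seen. Of the 35 tested, 4 rose (Dbp, Crebzf, Maf and Tef), against 3.56% of all tested genes, and 4 fell (Mafg, Maff, Crem and Bach1), against 5.19%, with a median log2 fold change of -0.005. Log2 fold changes of these genes ran from -0.46 to 1.00, beside -1.09 for Jdp2 and -1.12 for Fosl1.

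**Figure D5:**
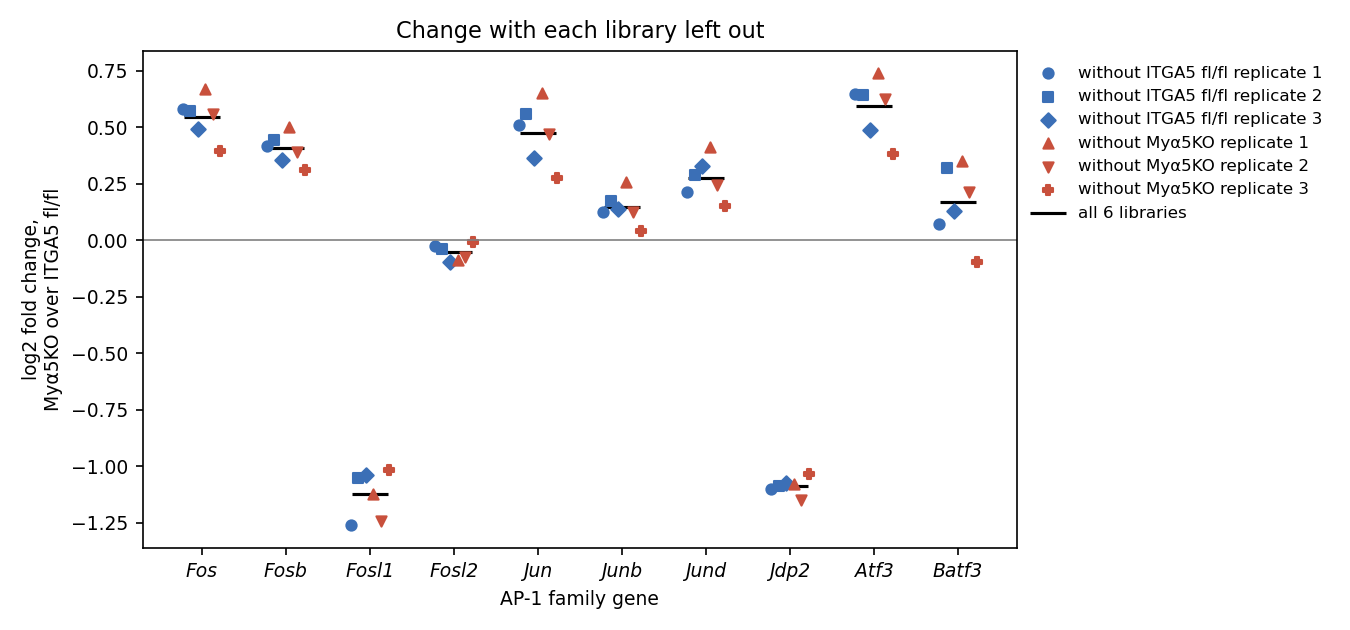
Log2 fold change of each AP-1 gene when each of the 6 libraries is left out in turn (blue symbols, an ITGA5 fl/fl library left out; red symbols, a Myα5KO library left out), with a black bar for all libraries. Jdp2 (-1.15 to -1.04) and Fosl1 (-1.26 to -1.02) stay far below 0, Fos (0.39 to 0.67) and Atf3 (0.38 to 0.74) stay above 0 and are lowest without Myα5KO replicate 3, and Batf3 changes sign without that library.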

How the data were processed

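RNA of 6 libraries was sequenced as paired-end reads. Per the labels and the methods of the study, the authors cleaned the reads of adapters and poor bases, mapped them to GRCm38.p6 (TopHat2 2.0.9) and counted them per gene (HTSeq 0.6.1). Cufflinks 2.1.1 is also listed. The deposited counts are whole numbers without normalization. The settings for strand and multi-mapped reads are not stated. The deposited FPKM values, also by the authors, equal the count divided by gene length and a constant per library, which was proportional to the DESeq2 size factor computed here.

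Groups and replicate numbers came from the sample titles. Differences were tested across all genes in edgeR 4.0.16 (R 4.3.3; glmQLFit and glmQLFTest), with TMM scaling and its default filter (minimum count 10, total 15), without covariates. P-values are two-sided and Benjamini-Hochberg adjusted over all 14522 tested genes. SE was the absolute log2 fold change divided by the square root of F. Sums and shares of FPKM were compared with an exact permutation test (SciPy 1.17.1). Alternatives were DESeq2 1.42.0, limma 3.58.1 (voom, and log2 FPKM with pseudocounts of 1 and 0.1), other scalings and filters, a replicate block and leaving out each library; ranges of adjusted p leave out the fit without a count filter. The scripts were tested on simulated data. The members and gene lists were chosen with earlier results of these data known. Named were all members, Itga5, called list genes, the 3 nearest genes of each called member, and bZIP genes within 200 kb. Others were named after their values were seen. A few called list genes are counted in their lists without being named. Replicates came from individual hearts, and p-values rest on the spread between these samples. In edgeR that spread was moderated toward that of all tested genes (9.50 prior degrees of freedom). Counts of amplified reads carry no molecular identifiers, so depth covers counting error only.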

Additional observations from a re-analysis of the deposited data

How the results depend on the processing

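Jdp2 was called in 18 of 18 alternatives and Fosl1 in 17 of 18. The rises were less stable: Fos was called in 14 of 18, Fosb and Atf3 in 12 each. Limma on log2(FPKM + 1) called 472 genes, with 0 AP-1 genes higher (3 at an unadjusted p under 0.05) and 2 lower. With a pseudocount of 0.1 the counts were 448, 0 (3 unadjusted) and 2, and without an FPKM filter 10, 0 (3 unadjusted) and 1. The cause was not tested. The stricter threshold of 0.01 gave, by its construction, fewer calls, with 470 genes and 1 AP-1 gene higher (Fos). Without a count filter 5 AP-1 genes were higher, in a fit with infinite prior degrees of freedom. When each library was left out in turn, 616 to 1091 genes were changed, 0 to 5 AP-1 genes were higher (0 without ITGA5 fl/fl replicate 3 with 5 unadjusted, 5 without Myα5KO replicate 1) and 2 were lower in each fit. DESeq2 called 2 AP-1 genes higher. Scaling by library totals gave 1212 genes higher and 518 lower, against 517 and 754, with 4 AP-1 genes higher (Jun added). Fosl2 changed sign under that scaling (0.026) and Batf3 without Myα5KO replicate 3 (-0.098; up to 0.35 without Myα5KO replicate 1). With the replicate number as a block 1181 genes were changed, with 3 AP-1 genes higher and 2 lower. Deviations of same-numbered libraries correlated at 0.051, -0.058 and 0.043, and 2 of 6 libraries correlated best with their own number, so the numbers were not read as pairs. The count of further immediate early genes that rose was 4 with the block, and on the FPKM scale it was 1. The count of fallen AP-1 target genes was 6 on the FPKM scale with either pseudocount and 1 without the FPKM filter, against 10. The alternatives for these last 2 counts were added after the data were seen.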
